A study of Homo sapiens with 12 samples.

Results

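A set of 40 genes of the endoplasmic reticulum (ER) was examined across the 12 libraries. It holds the chaperones of the ER lumen, their folding partners, the genes of ER-associated degradation, the stress sensors, and the machinery by which secretory proteins enter the ER. Members were chosen by function from a named list, with no measured value in the rule, and were found by the Ensembl identifiers that GENCODE 29 pairs with their symbols. All 40 were present among the 59191 features of the deposited table. Of these, 39 passed the filter on low values and were tested among 15352 genes, and DERL3, a paralog in the membrane channel of ER-associated degradation, did not.

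The cells were Huh7, an established human hepatocellular carcinoma line. There were 4 groups of 3 libraries each: solvent (DMSO) control, disulfiram, thalidomide, and the combination of both drugs. Disulfiram blocks aldehyde dehydrogenases and is an old treatment for alcohol dependence, and thalidomide acts by binding the ubiquitin ligase component cereblon. The column names carry the numbers 10 for disulfiram and 20 for thalidomide with no unit, and the length of treatment is not given in the sources used here. The labels' extraction protocol describes dissociated tumour tissue and droplet capture of single cells, which goes against the named cell line, while the table holds 1 value per gene for each of 12 libraries. All 9 hepatoma markers, among them ALB and AFP, were at a mean TPM (a length-scaled share of all transcripts in a library) of at least 1. The leukocyte genes PTPRC, CD3E, MS4A1 and NKG7 were below 1 in every library, as were 4 of the 5 endothelial genes, VWF, CDH5, KDR and CLDN5. CD14, LYZ, CD68 and CD3D were above 1 in every library, and the summed TPM of these 8 leukocyte genes ran from 130.5 to 183 in control and from 145 to 215 with disulfiram. CD14 made up most of this sum, with 99.1 to 169 TPM in control and 49.8 to 119 with disulfiram, while CD68 went from between 5.08 and 13.8 TPM to between 66.5 and 68.8. LYZ had 4.76 to 6.14 TPM in control and 10.9 to 14.6 with disulfiram, and CD3D 4.32 to 12.3 and 11.5 to 17.5. The fifth endothelial gene, PECAM1, had 0.69 to 1.41 TPM in control and 3.40 to 7.37 with disulfiram, and the endothelial sum ran from 0.88 to 1.64 and from 3.52 to 7.52. Of 6 fibroblast and stellate genes 3 had a mean of at least 1, led by LUM and COL1A1, and their sum ran from 42.4 to 46.8 in control and from 28.9 to 36.3 with disulfiram. The 3 cholangiocyte genes summed to 158 to 174 TPM in control and 137 to 194 with disulfiram. The part of these markers in the results was not tested. In bulk samples, fewer cells of a type and less RNA per cell cannot be told apart.

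A secretory protein is threaded into the ER through the Sec61 channel, loses its signal peptide to signal peptidase, receives its glycans from the oligosaccharyltransferase, and is folded by chaperones such as BiP (encoded by HSPA5) and by disulfide isomerases. Proteins that fail to fold are sent back to the cytosol for degradation. When unfolded proteins build up, the sensors ATF6, IRE1 (ERN1) and PERK (EIF2AK3) start the unfolded protein response, whose best known targets are the chaperones themselves. Hepatocytes export most plasma proteins and depend heavily on this machinery.

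With disulfiram, 15 of the 39 tested members fell and none rose (limma, adjusted p below 0.05 over all genes). Among all genes tested 4.52% fell and 8.73% rose. The fall covered all 5 luminal chaperones and 4 of 5 members of the disulfide isomerase and oxidase group, while none of the 5 signal peptidase genes and none of the 4 subunits of the translocon-associated protein (TRAP) complex passed. The median log2 fold change was -0.26 over the members and 0.09 over all genes tested. Every disulfiram library lay below every control library in 19 of the 39 members and above in 2, while 11.4% of all genes tested lay below and 21.5% above. Thalidomide alone moved none of the 39 past the threshold, and 0.00% of all genes tested passed it. Fold changes are on the log2(TPM + 1) scale throughout and are given ± SE.

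**Figure D1:**
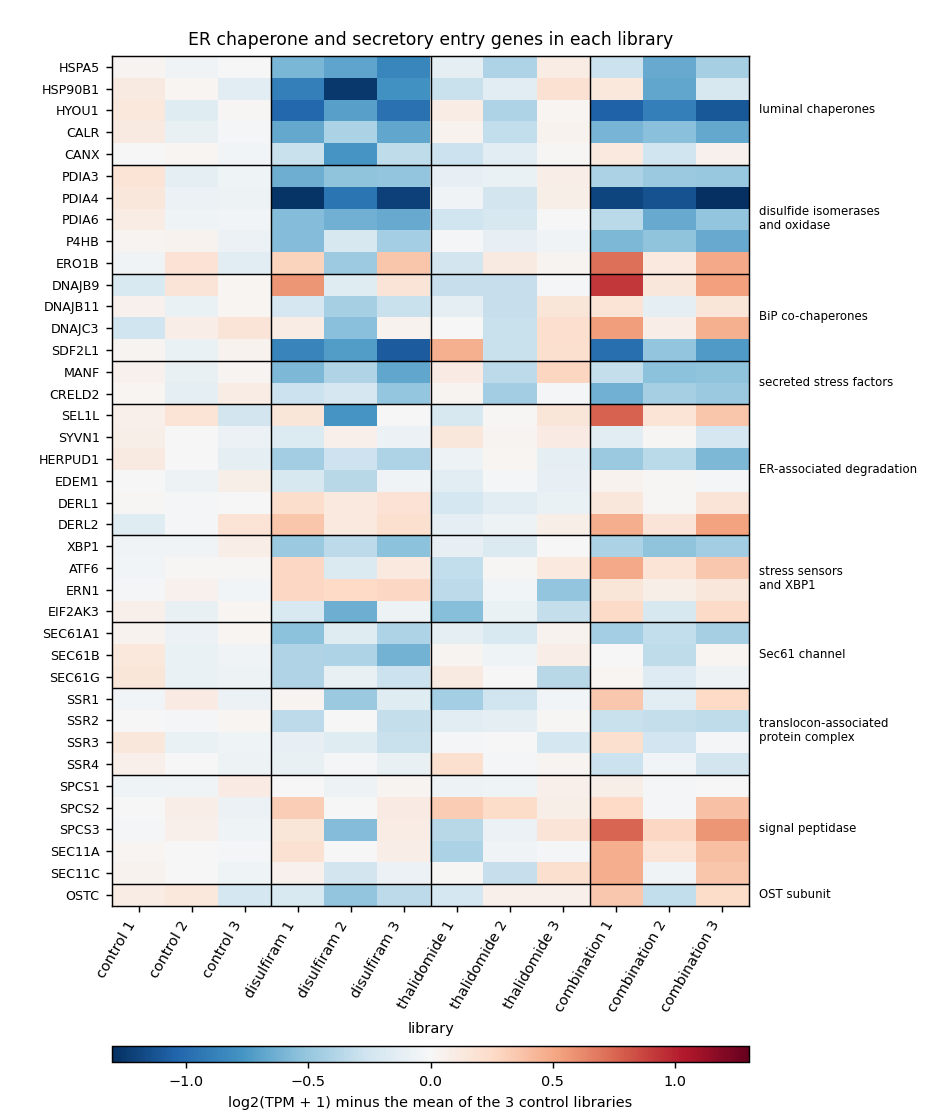
Each row is 1 of the 39 tested members, ordered by role, and each column is 1 library. Colour gives log2(TPM + 1) minus the mean of the 3 control libraries. The disulfiram and combination columns are blue for most luminal chaperones and isomerases, and the thalidomide columns are mostly pale. The second combination column is bluer than its neighbours for CANX and HSP90B1.

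As a share of all transcripts, the 40 members together made up 7709 ± 372 TPM in control (SD, n = 3), which is 0.771% of the total. They summed to 5840 ± 317 TPM with disulfiram, 7452 ± 442 with thalidomide and 6136 ± 199 with the combination. The disulfiram sum was 75.8% of control, and its 3 libraries, between 5638 and 6206 TPM, lay below the control range of 7446 to 8135. The 5 luminal chaperones went from 2042 ± 123 to 1330 ± 66.5 TPM, or 65.1% of control, with CALR as the most abundant of them. The signal peptidase genes summed to 317 ± 0.905 TPM in control and 326 ± 25.1 with disulfiram. The summed TPM of the hepatoma markers ran from 4146 to 5705 in control and from 3677 to 3935 with disulfiram, and its part in these results was not tested.

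HSPA5 encodes BiP, the Hsp70 of the ER and the main chaperone of newly entered proteins (ENSG00000044574, hg38 chr9:125234853-125241330). Its TPM was 258, 244 and 253 in the control libraries and 167, 156 and 139 in the disulfiram libraries. The groups did not overlap, and HSPA5 fell to 61.2% of its control mean, a log2 fold change of -0.71 ± 0.13 (SE, 95% confidence interval -0.98 to -0.43, adjusted p = 0.00421). HSP90B1 encodes GRP94, the ER paralog of Hsp90 (ENSG00000166598, chr12:103930107-103953645), and measured 111, 104 and 91.5 TPM in control and 54.4, 41.9 and 58.4 with disulfiram. All 3 treated libraries were lower, the second lowest of all, and the log2 fold change was -0.98 ± 0.19 (SE, 95% confidence interval -1.40 to -0.55, adjusted p = 0.00753). HYOU1 encodes GRP170, a large Hsp70 relative that exchanges the nucleotide of BiP (ENSG00000149428, chr11:119044189-119057202). It had 159, 129.5 and 147 TPM in control and 70.5, 88.3 and 73.3 with disulfiram, again without overlap, for a log2 fold change of -0.90 ± 0.14 (SE, 95% confidence interval -1.20 to -0.60, adjusted p = 0.00173).

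The other luminal chaperones of the list are the lectins that hold glycoproteins during folding. Calreticulin, CALR (ENSG00000179218, chr19:12938578-12944489), stood at 1409.9, 1216 and 1294 TPM in control and 820.4, 979 and 819 with disulfiram. It fell by 0.58 on the log2 scale (adjusted p = 0.00489), with the groups apart. Calnexin, CANX, is the membrane-bound counterpart and fell from 237 ± 5.06 to 174 ± 30.0 TPM (SD, n = 3) and by 0.46 on the log2 scale (adjusted p = 0.0405). The call on CANX was lost when any 1 of control 1, control 2, control 3, disulfiram 2 or disulfiram 3 was left out (adjusted p between 0.0577 and 0.103), while those on HSPA5, HSP90B1, HYOU1 and CALR held in all 15 alternatives.

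The promoters of these chaperones are known for the ER stress element, CCAAT and CCACG with 9 bases between, and for its short form, the ER stress element II, ATTGG and CCACG with 1 base between. Both are textbook sites of the factor NF-Y (the CCAAT box) and of ATF6 (the CCACG box). RefSeq (GRCh38.p14) start sites gave windows of 250 bases before to 50 bases after the start for 36 of the 40 members. PDIA3, DERL1, DERL3 and SPCS1 had none. On either strand the ER stress element was found in 8 members (HSPA5, HSP90B1, CALR, CANX, PDIA6, ERO1B, CRELD2 and XBP1) and in 0.0769% of all 35116 windows. Element II was found in 3 others (HYOU1, which holds 2 copies, SDF2L1 and HERPUD1) and in 0.0541% of all windows. The first 250 bases of the HSPA5 and HYOU1 windows follow, as examples of the long and the short form, written 5′ to 3′ on the gene's own strand with both boxes of each element in capitals.
HSPA5, chr9:125241344-125241593, minus strand: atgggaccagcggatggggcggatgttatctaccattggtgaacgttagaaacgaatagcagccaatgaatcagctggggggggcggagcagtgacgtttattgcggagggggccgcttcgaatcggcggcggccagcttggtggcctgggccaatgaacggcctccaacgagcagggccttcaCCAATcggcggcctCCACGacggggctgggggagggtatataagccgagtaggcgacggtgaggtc
HYOU1, chr11:119057206-119057455, minus strand: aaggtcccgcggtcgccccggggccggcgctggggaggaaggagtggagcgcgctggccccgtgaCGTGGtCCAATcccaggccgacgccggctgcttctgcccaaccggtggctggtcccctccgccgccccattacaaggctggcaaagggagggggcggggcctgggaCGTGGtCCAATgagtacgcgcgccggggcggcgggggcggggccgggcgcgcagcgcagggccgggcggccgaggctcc
In HSPA5 the element begins 66 bases before the start site, and in HYOU1 the copies begin 185 and 79 bases before it. Both HYOU1 copies read on the opposite strand, so that their boxes appear as CGTGG and CCAAT.

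The corresponding stretches of further members, with 6 flanking bases on each side, show the letters around each element. They are given because their levels are compared below by promoter. ERO1B and CRELD2 carry the element and did not pass with disulfiram. The stretch of CANX, whose element begins 9 bases before the start site and runs past it, is not printed.
HSP90B1, chr12:103930210-103930240, plus strand: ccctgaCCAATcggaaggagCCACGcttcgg
HSP90B1, chr12:103930315-103930345, plus strand: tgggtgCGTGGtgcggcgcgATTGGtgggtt
CALR, chr19:12938378-12938408, plus strand: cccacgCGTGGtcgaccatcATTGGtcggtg
PDIA6, chr2:10812847-10812877, minus strand: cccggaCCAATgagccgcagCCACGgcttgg
XBP1, chr22:28800597-28800627, minus strand: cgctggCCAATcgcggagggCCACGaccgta
CRELD2, chr22:49918548-49918578, plus strand: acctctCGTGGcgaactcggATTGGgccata
ERO1B, chr1:236282177-236282207, minus strand: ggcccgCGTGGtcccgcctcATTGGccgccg
SDF2L1, chr22:21642108-21642130, plus strand: cggaagCGTGGaCCAATcaaaac
HERPUD1, chr16:56932019-56932041, plus strand: acgccgATTGGgCCACGttggga
HSP90B1 carries the element on both strands, 194 and 89 bases before its start. GENCODE 29 places the outermost start of HSP90B1, CANX, PDIA6 and CRELD2 farther upstream than RefSeq does. The same holds, by fewer bases, for CALR, ERO1B, SDF2L1, HERPUD1 and XBP1. A match is a run of letters and says nothing of whether a factor was bound in these cells.

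Among the 11 members with either element, 9 fell with disulfiram, beside 4.52% of all genes tested, with a median log2 fold change of -0.58. The 2 that did not pass were ERO1B (0.06) and CRELD2 (-0.33). Among the 25 members whose window held neither, 5 fell (PDIA4, P4HB, MANF, SEC61A1 and SEC61B) and the median was -0.20. Of the 3 tested members without a window, PDIA3 fell. The largest fall of the whole list, that of PDIA4, thus came from a window with neither element. In the combination against control 8 of the 11 and 5 of the 25 fell, while 0 and 2 rose. Against thalidomide 7 of the 11 and 5 of the 25 fell, while 0 and 5 rose. Of all genes tested 6.70% and 7.24% fell in these comparisons. Calls on genes outside the list that carry an element were not counted, and the part of the elements was not tested. Either element was present in 0.161% of the 27305 genes with a window and in 30.6% of the 36 members, and no test was made of this difference. Since promoters of such chaperones were already known for these elements, the difference is not an independent result. The sequence TGACGTGG, a binding site of XBP1, was in the windows of HYOU1, SSR3 and SSR4 (0.729% of all windows). TGATGCAAT, a composite site of ATF4 and C/EBP factors, was in no member's window (0.236% of all windows).

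**Figure D2:**
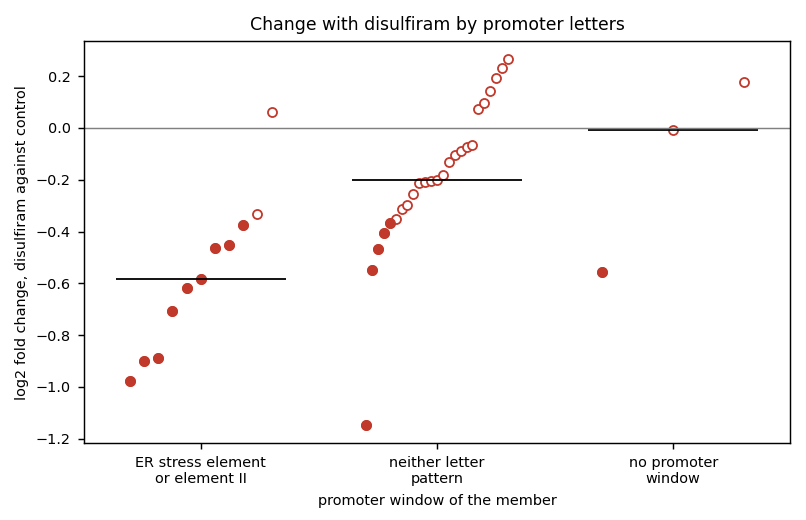
Each point is 1 tested member, placed by whether its 300-base RefSeq window holds either ER stress element, neither, or is missing. The vertical axis is the log2 fold change of disulfiram against control, filled points have an adjusted p below 0.05, and black lines are medians. Of the 11 members with an element, 9 are filled, against 5 of 25 with neither. Among all genes tested 4.52% fell.

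The disulfide isomerases make and rearrange the disulfide bonds of secreted proteins. PDIA4, or ERp72 (ENSG00000155660, chr7:149003062-149028641), showed the largest change of the 39. Its TPM was 272, 233 and 234 in control and 101, 126 and 105 with disulfiram, so it fell to 45% of control, a log2 fold change of -1.15 ± 0.11 (SE, 95% confidence interval -1.39 to -0.91, adjusted p = 0.000116). PDIA6 had 169.9, 153 and 155 TPM in control and 107, 103 and 100.3 with disulfiram. The treated values lay close together and below control, for a log2 fold change of -0.62 ± 0.09 (adjusted p = 0.00173). PDIA3, or ERp57, which works with calnexin and calreticulin, had 349.6, 283 and 298 TPM in control and 199, 215 and 217 with disulfiram, and its log2 fold change was -0.55 ± 0.09 (adjusted p = 0.002). P4HB, the founding isomerase and a subunit of prolyl hydroxylase, had 817, 823 and 755 TPM in control and 538, 691 and 585 with disulfiram. Its groups were apart and its log2 fold change was -0.41 ± 0.09 (adjusted p = 0.00994). These 4 calls held in all 15 alternatives. ERO1B, an oxidase that recharges the isomerases, was scarce at 2.75 ± 0.452 TPM in control and 3.02 ± 1.15 with disulfiram (SD, n = 3), and its log2 fold change of 0.06 ± 0.23 had an interval of -0.44 to 0.56. It turned to -0.04 both with median-of-ratios scaling and with a correction for transcript GC content.

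**Figure D3:**
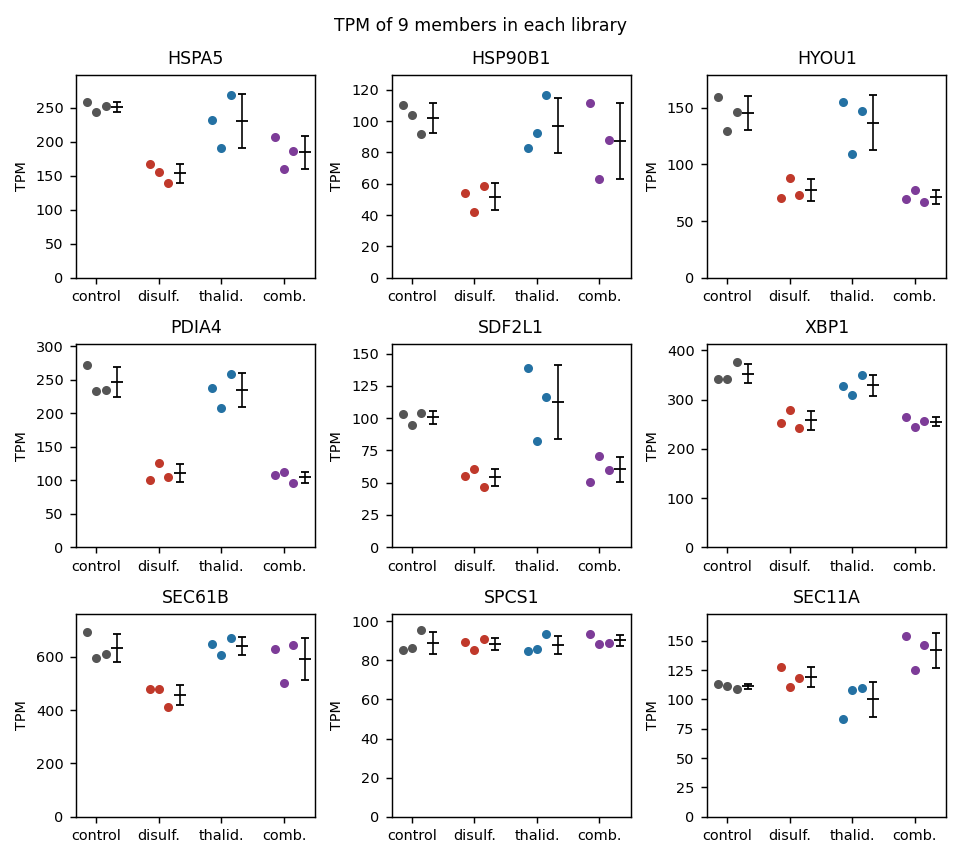
TPM of 9 members in each of the 12 libraries, 1 panel per gene, with the 4 groups along the horizontal axis. Points are libraries 1 to 3 from left to right, and the black bar beside them is the mean with its SD (n = 3). For PDIA4 the 6 libraries treated with disulfiram, alone or combined, lie between 95.6 and 126 TPM and the other 6 between 208 and 272, while SPCS1 stays between 84.9 and 95.5 in all 12.

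Of the BiP co-chaperones, SDF2L1 alone fell. It encodes a small partner that keeps substrates soluble with BiP (ENSG00000128228, chr22:21642261-21644298). It measured 103, 94.8 and 104 TPM in control and 55.1, 60.4 and 47 with disulfiram, a log2 fold change of -0.89 ± 0.17 (SE, 95% confidence interval -1.27 to -0.51, adjusted p = 0.00685) with no overlap. The J-domain proteins DNAJB9, DNAJB11 and DNAJC3, which stimulate the ATPase of BiP, did not pass, at log2 fold changes of 0.19 ± 0.21, -0.31 ± 0.12 and -0.13 ± 0.21. DNAJB11 was nonetheless lower in all 3 disulfiram libraries (49.3, 42.3 and 46.6 TPM) than in control (59.7, 54.2 and 58.4). MANF and CRELD2 are ER stress factors that can be secreted. MANF had 72.9, 65.3 and 71.7 TPM in control and 46.3, 53.1 and 43.5 with disulfiram, and fell by 0.55 on the log2 scale (adjusted p = 0.0258). The call on MANF was lost without control 1, control 3, disulfiram 1 or disulfiram 3 (adjusted p between 0.0739 and 0.0976). CRELD2 had 94, 85.2 and 98.8 TPM in control and 76.3, 79.3 and 65.1 with disulfiram. Its groups were also apart, but the log2 fold change of -0.33 ± 0.13 (adjusted p = 0.112) missed the threshold.

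Of the 6 tested members of ER-associated degradation, only HERPUD1 passed with disulfiram. It encodes a membrane organiser of the retrotranslocation complex and had 121, 111 and 101 TPM in control and 80.7, 91.4 and 83.4 with disulfiram. Its log2 fold change was -0.38 ± 0.09 (adjusted p = 0.0182), and the call was lost without control 1, control 2, disulfiram 1 or disulfiram 3 (adjusted p between 0.0565 and 0.0761). The ubiquitin ligase SYVN1 (HRD1) and its adaptor SEL1L had log2 fold changes of -0.06 ± 0.09 and -0.21 ± 0.23. The second disulfiram library held 6.01 TPM of SEL1L and the others 12.3 and 10.9. EDEM1, a lectin that hands glycoproteins over to degradation, stood at -0.20 ± 0.10. The channel genes DERL1 and DERL2 had positive log2 fold changes that did not pass. DERL1 had 26.8, 26.3 and 26.6 TPM in control and 31.2, 29 and 30.4 with disulfiram, all of the latter higher, at 0.18 ± 0.08 (adjusted p = 0.168). DERL2 had 27.3, 29.9 and 34.8 TPM in control and 39.4, 33.5 and 35.5 with disulfiram, at 0.23 ± 0.12 (adjusted p = 0.235). DERL3 was listed at 1.27, 0.93 and 0.24 TPM in control, 0.16, 0.16 and 0.15 with disulfiram, 0.33, 0.83 and 0.95 with thalidomide and 0.23, 0.07 and 0.12 with the combination. Every value with disulfiram was lower than every value without it, at levels where a TPM rounded to 2 decimals is coarse.

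None of the 3 sensors of the unfolded protein response passed with disulfiram. ATF6, a membrane-bound factor that is cleaved in the Golgi, had 3.54, 3.7 and 3.69 TPM in control and 4.61, 3.09 and 4.07 with disulfiram. Its log2 fold change of 0.07 ± 0.16 (adjusted p = 0.82) turned to -0.03 when libraries were scaled by median of ratios. ERN1, the kinase and nuclease IRE1, had 7.14, 7.56 and 7.03 TPM in control and 8.92, 8.89 and 8.92 with disulfiram. All 3 treated libraries were higher, yet the log2 fold change of 0.27 ± 0.12 (adjusted p = 0.185) did not pass. EIF2AK3, the kinase PERK, had 13.8, 12.2 and 13.3 TPM in control and 11.3, 8.09 and 12.5 with disulfiram, for -0.30 ± 0.18 (adjusted p = 0.305). With a correction for transcript GC content, described below, EIF2AK3 passed at -0.38 (adjusted p = 0.0244). XBP1, whose messenger RNA is spliced by IRE1 into the code for a transcription factor (ENSG00000100219, chr22:28794555-28800597), did fall. It had 341, 342 and 375 TPM in control and 252, 279 and 243 with disulfiram, a log2 fold change of -0.45 ± 0.08 (SE, 95% confidence interval -0.62 to -0.29, adjusted p = 0.00307) that held in all 15 alternatives. A gene-level TPM does not tell spliced from unspliced XBP1.

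At the point of entry, 2 of the 3 Sec61 channel genes fell. SEC61A1 encodes the pore and had 260.4, 239 and 255 TPM in control and 173, 225 and 189.7 with disulfiram, at -0.37 ± 0.10 (adjusted p = 0.0294). SEC61B encodes a small tail-anchored subunit and had 691, 593 and 610.0 TPM in control and 479, 477 and 412 with disulfiram, at -0.47 ± 0.10 (adjusted p = 0.012). The groups were apart for both, and also for the third subunit, SEC61G, whose log2 fold change of -0.26 ± 0.12 (adjusted p = 0.194) did not pass. SEC61A1 lost its call without control 1, control 2, control 3, disulfiram 1 or disulfiram 3 (adjusted p between 0.0514 and 0.109), and SEC61B without control 1 or disulfiram 3 (adjusted p between 0.0531 and 0.0555).

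Among the members, no subunit of the complexes that sit beside the channel passed with disulfiram. Further subunits outside the list of members are given below. The TRAP subunits SSR1, SSR2, SSR3 and SSR4 had log2 fold changes of -0.20 ± 0.16, -0.21 ± 0.09, -0.18 ± 0.12 and -0.07 ± 0.08. SSR4, the most abundant, had 738, 699 and 673 TPM in control and 658, 689.7 and 657 with disulfiram, with overlap. In signal peptidase, which removes the signal peptide, SEC11A and SEC11C encode the catalytic subunits and SPCS1, SPCS2 and SPCS3 the accessory ones. SEC11A had 113, 111 and 109 TPM in control and 128, 111 and 118 with disulfiram, at 0.09 ± 0.11 (adjusted p = 0.635), which turned to -0.03 with median-of-ratios scaling. The other 4 ran from -0.10 for SPCS3 to 0.14 for SPCS2, and the interval of SPCS1 was narrow, -0.17 to 0.15. OSTC, a subunit of the oligosaccharyltransferase form that works at the channel, had 59.7, 61.1 and 47.2 TPM in control and 48.4, 38.6 and 43.7 with disulfiram, and its -0.35 ± 0.17 (adjusted p = 0.207) did not pass. With the GC correction OSTC (-0.43, adjusted p = 0.0101), SSR1 (-0.28, 0.0154) and SSR2 (-0.29, 0.0479) did pass. OSTC also passed with median-of-ratios scaling (adjusted p = 0.0454), and SSR2 with disulfiram 2 and combination 2 both left out (adjusted p = 0.0138).

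Other genes of the pathway were taken from lists by function and counted in each branch. With disulfiram 4.52% of all genes tested fell and 8.73% rose, beside which these counts are to be read. Of 28 further ER folding enzymes tested, 6 fell and none rose, among them UGGT1 (-0.72 ± 0.13, adjusted p = 0.00401), which tags unfinished glycoproteins for another round of folding, the isomerase PDIA5 (-0.68 ± 0.11, adjusted p = 0.00278) and the prolyl isomerase PPIB (-0.60 ± 0.09, adjusted p = 0.00154). Of 14 oligosaccharyltransferase and glycan-trimming genes 3 fell and none rose: the subunits RPN2 (-0.57) and DDOST (-0.34) and the glucosidase subunit GANAB (-0.39). Of 21 genes of the COPII coat and ER exit 2 fell and none rose, SEC13 (-0.28), a coat subunit, and the cargo receptor SURF4 (-0.32). The degradation list had 1 fall, ERLIN1 (-0.37), and 2 rises, UFD1 (0.41) and AUP1 (0.36), of 24. UFD1 is the partner of NPLOC4 on the p97 segregase. Of 23 translocon and membrane-insertion genes 1 fell, TRAM2 (-0.73), and 3 rose, the membrane complex subunits EMC7 (0.57) and EMC3 (0.49) and the tail-anchor ATPase ASNA1 (0.33).

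The 2 lists of stress signalling held changes in both directions. In the PERK and ATF4 arm 5 of 13 genes fell and 4 rose. The glutathione-degrading CHAC1 fell by 1.63 on the log2 scale, from 10.6, 29.4 and 27 TPM in control to 5.37, 8.22 and 4.69 with disulfiram. The asparagine synthetase ASNS fell by 1.21, while the transcription factor ATF3 rose by 1.27, from 17.3, 19.4 and 15.7 to 50.2, 41.6 and 38.7 TPM. The list of ATF6 processing and the CREB3 family held ATF6B, CREB3, CREB3L1, CREB3L2, CREB3L3, CREB3L4, MBTPS1, MBTPS2 and TRAF2. The CREB3 factors are cleaved in the Golgi like ATF6, while MBTPS1, MBTPS2 and TRAF2 are not factors of that kind. Of these 9 genes, 5 rose and 1 fell. CREB3L1 (0.93 ± 0.22, adjusted p = 0.0176), CREB3L3 (0.87 ± 0.16, adjusted p = 0.00503) and CREB3L4 (0.59 ± 0.14, adjusted p = 0.0186) had the largest rises of that list, and CREB3L2 fell (-0.52 ± 0.09, adjusted p = 0.00356). Of all genes tested 4.52% fell and 8.73% rose in this comparison.

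Thalidomide alone moved no member past the threshold. Of 39, 0 passed, and the lowest adjusted p was 0.845 (limma). An unadjusted p below 0.05 was found for 1 of the 39, beside 873 of all 15352 genes tested. The median log2 fold change was -0.08, with -0.03 over all genes tested. That 1 gene was ERN1, with 5.5, 7.04 and 4.79 TPM and a log2 fold change of -0.30 ± 0.12. HSPA5 measured 233, 190.2 and 269 TPM, HYOU1 155, 109 and 147 and PDIA4 237, 208 and 258, all overlapping control. For HSPA5 the interval of the difference was -0.41 to 0.14 on the log2 scale.

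The effect of disulfiram could also be read in the presence of thalidomide, by setting the combination against thalidomide alone. The group means compared share no library with disulfiram against control. Both comparisons use the same spread per gene, estimated from all 12 libraries in 1 fit, so their calls are not fully separate. Of 39 members 13 fell and 6 rose. Among all genes tested 7.24% fell and 25.0% rose, and the median of all genes stood at 0.22 on the log2 scale. The members' median was 0.01. Every combination library lay below every thalidomide library in 13 members and above in 10, where 10.8% of all genes tested lay below and 33.9% above. When libraries were scaled by median of ratios, which brings the median of all genes to 0.00, 17 members fell and none rose, beside 15.6% and 10.4% of all genes tested. Leaving out combination 3 gave 8 falls and 1 rise, beside 3.75% and 10.4% of all genes tested. The rises numbered 1 without thalidomide 1 or combination 1, and 2 without thalidomide 2. Of all genes tested 11.0%, 10.9% and 18.7% then rose, in the order named.

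PDIA4 again changed the most, with 237, 208 and 258 TPM in the thalidomide libraries and 107, 112 and 95.6 in the combination. Its log2 fold change was -1.15 ± 0.11 (SE, 95% confidence interval -1.39 to -0.91, adjusted p = 8.5e-05). HYOU1 had 155, 109 and 147 TPM with thalidomide and 69.3, 77.7 and 66.6 with both drugs, at -0.92 ± 0.14 (SE, 95% confidence interval -1.22 to -0.62, adjusted p = 0.00112). SDF2L1 had 139, 82.1 and 116 TPM with thalidomide and 50.6, 70.4 and 59.9 with both drugs, at -0.87 ± 0.17 (adjusted p = 0.00514). In all of these every combination library lay below every thalidomide library. CALR measured 1348, 1046 and 1349.8 TPM with thalidomide and 856, 895 and 821 with both drugs. P4HB measured 783, 739 and 775 TPM with thalidomide and 530.2, 554 and 505 with both drugs. The log2 scale gave a fall of 0.53 for each of them, at an adjusted p of 0.00527 for CALR and 0.00174 for P4HB. PDIA3 had 287, 291 and 327 TPM with thalidomide and 232, 221 and 219 with both drugs and fell by 0.43 (adjusted p = 0.00527). None of these groups overlapped. XBP1 had 328, 308 and 351 TPM with thalidomide and 264, 245 and 257 with both drugs, at -0.36 ± 0.08 (adjusted p = 0.0062). HERPUD1 had 106, 113 and 102 TPM with thalidomide and 79, 86.6 and 73.3 with both drugs, at -0.42 ± 0.09 (adjusted p = 0.00712). HYOU1, CALR, PDIA3, PDIA4, P4HB, SDF2L1, HERPUD1 and XBP1 fell in all 15 alternatives of this comparison.

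Another 5 falls lost their call when certain single libraries were left out. PDIA6 (-0.35 ± 0.09, adjusted p = 0.0181) was not called without thalidomide 3 or combination 3. MANF had 75.1, 55 and 85.2 TPM with thalidomide and 56, 47.9 and 48.2 with both drugs, at -0.47 ± 0.14 (adjusted p = 0.0269). CRELD2 had 94.7, 67.4 and 91.7 TPM with thalidomide and 59.5, 68.2 and 66.1 with both drugs, at -0.37 ± 0.13 (adjusted p = 0.0448). In both genes the second thalidomide library was the lowest of its group and the groups overlapped. MANF lost its call without thalidomide 1, thalidomide 3, combination 2 or combination 3, and CRELD2 without thalidomide 1, thalidomide 3, combination 1 or combination 3. SEC61A1 had 229.6, 219 and 259.7 TPM with thalidomide and 185, 202 and 186 with both drugs, at -0.30 ± 0.10 (adjusted p = 0.0359). SSR4 had 814, 697 and 719.6 TPM with thalidomide and 579.7, 685 and 594 with both drugs, at -0.26 ± 0.08 (adjusted p = 0.0289), and the groups were apart for both genes. SEC61A1 lost its call without thalidomide 1, thalidomide 3, combination 1 or combination 3, and SSR4 without thalidomide 1, combination 1 or combination 3.

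The 6 members that rose against thalidomide were DNAJB9, SPCS3, SEC11A, ERN1, DERL2 and DERL1. DNAJB9 had 12.4, 12.4 and 15.2 TPM with thalidomide and 30.1, 17.2 and 22.9 with both drugs, at 0.74 ± 0.21 (adjusted p = 0.0224). SPCS3 had 8.53, 10.6 and 12.8 TPM with thalidomide and 19.6, 13.8 and 17.2 with both drugs, at 0.62 ± 0.20 (adjusted p = 0.0341). SEC11A had 83.2, 108 and 109.8 TPM with thalidomide and 154, 125 and 146 with both drugs, at 0.50 ± 0.11 (adjusted p = 0.00835). The groups were apart for all 3 genes. ERN1 had 5.5, 7.04 and 4.79 TPM with thalidomide and 8.19, 7.7 and 8.15 with both drugs, at 0.42 ± 0.12 (adjusted p = 0.0241), where the thalidomide libraries were the low ones. DERL2 had 27.9, 29.1 and 32.2 TPM with thalidomide and 42.6, 34.3 and 44.2 with both drugs, at 0.42 ± 0.12 (adjusted p = 0.0228). DERL1 had 22.6, 23.8 and 24.9 TPM with thalidomide and 29.6, 26.9 and 29.9 with both drugs, at 0.26 ± 0.08 (adjusted p = 0.0275). Both channel genes were higher in every combination library. None of the 6 passed once libraries were scaled by median of ratios, where their log2 fold changes were 0.49, 0.37, 0.24, 0.19, 0.16 and 0.01 in the order named. Of the 6, SEC11A was the one that kept its call with any 1 library left out.

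**Figure D4:**
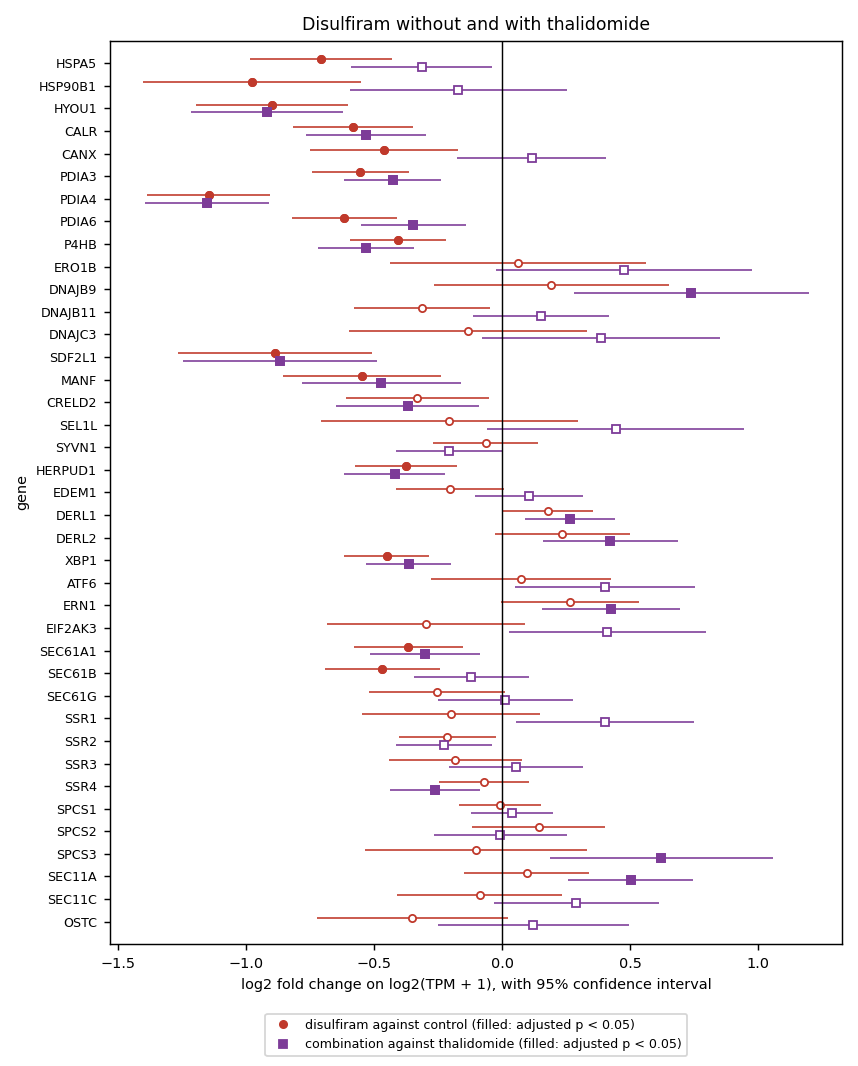
Log2 fold change on log2(TPM + 1) with its 95% confidence interval for each of the 39 tested members. Circles are disulfiram against control and squares the combination against thalidomide. Their group means share no library, while their intervals use the same estimate of spread per gene. Filled symbols have an adjusted p below 0.05. PDIA4 lies farthest to the left in both, while HSP90B1, CANX and SEC61B are filled in the first and open in the second.

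The overlap of the falls in these 2 comparisons was 11 members, which is 73.3% of the 15 and 84.6% of the 13. Over all genes tested 500 fell in both, 72.0% of 694 and 45.0% of 1112. The log2 fold changes had the same sign in 64.1% of the members and in 73.9% of all genes tested. HSPA5, HSP90B1, CANX and SEC61B fell with disulfiram alone and did not pass against thalidomide, at -0.31 ± 0.13 (adjusted p = 0.0745), -0.17 ± 0.19 (adjusted p = 0.509), 0.11 ± 0.13 (adjusted p = 0.521) and -0.12 ± 0.10 (adjusted p = 0.375). The value of CANX turned to -0.15 with median-of-ratios scaling and to -0.24 with the GC correction. HSPA5 passed there without thalidomide 2 (-0.45, adjusted p = 0.0237), with median-of-ratios scaling (-0.58, adjusted p = 0.00871) and with the GC correction (-0.62, adjusted p = 0.00514). SEC61B also passed there with median-of-ratios scaling (-0.39, adjusted p = 0.0275) and with the GC correction (-0.34, adjusted p = 0.0332).

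Against the solvent control, the combination had 14 members lower and 2 higher of 39, where 6.70% of all genes tested were lower and 18.4% higher and their median stood at 0.20. This comparison shares its control libraries with disulfiram against control. PDIA4 (-1.22 ± 0.11, adjusted p = 7.68e-05), HYOU1 (-1.01 ± 0.14, adjusted p = 0.00103), SDF2L1 (-0.74 ± 0.17, adjusted p = 0.0125), CALR (-0.61 ± 0.11, adjusted p = 0.00391) and P4HB (-0.59 ± 0.09, adjusted p = 0.00152) fell the most. HSPA5 had 208, 159.9 and 186 TPM with the combination and fell by 0.45 on the log2 scale (adjusted p = 0.0247). Its call was lost without control 1, control 3, combination 2 or combination 3. CRELD2 (-0.51 ± 0.13, adjusted p = 0.0161) and SSR2 (-0.31 ± 0.09, adjusted p = 0.0242) passed here and not with disulfiram alone. SSR2 had 420.1, 412 and 426 TPM in control, 332, 419 and 339 with disulfiram and 343, 338 and 333 with the combination, and the second disulfiram library was level with control. SEC11A and DERL2 rose, at 0.35 ± 0.11 (adjusted p = 0.0422) and 0.38 ± 0.12 (adjusted p = 0.0379), and neither passed with median-of-ratios scaling (0.11 and 0.15), under which 16 members fell and none rose, beside 13.9% and 7.90% of all genes tested. The falls numbered 9 without control 1, without combination 1 or without combination 3, where 3.20% to 4.29% of all genes tested fell. The rises numbered 0 without control 1, control 2, combination 1 or combination 3, 1 without control 3, and 5 without combination 2. Of all genes tested 6.08% to 12.5%, 9.13% and 25.2% then rose, in the order named.

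Adding thalidomide to disulfiram moved no member past the threshold. Against disulfiram alone, 0 of 39 passed and the lowest adjusted p was 0.256 (limma), with 0.00651% of all genes tested passing. An unadjusted p below 0.05 was found for 13 of the 39, beside 2631 of all 15352 genes tested. HSP90B1 differed the most, with 54.4, 41.9 and 58.4 TPM with disulfiram and 112, 63.3 and 87.7 with the combination. The combination libraries were all higher, and the log2 difference was 0.73 ± 0.19 (SE, 95% confidence interval 0.30 to 1.15, adjusted p = 0.256). SEC61B was next by p, with 479, 477 and 412 TPM with disulfiram, 630.4, 502 and 642 with the combination and a log2 difference of 0.37 ± 0.10 (SE, 95% confidence interval 0.14 to 0.59, adjusted p = 0.256). For PDIA4 the difference was -0.08 ± 0.11, with an interval of -0.32 to 0.16, and for HYOU1 -0.11 ± 0.14, with -0.41 to 0.18.

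The interaction asks whether the log2 change with both drugs differs from the sum of the changes with each. It was also passed by 0 of 39 members, with a lowest adjusted p of 0.466 and 0.00% of all genes tested passing. An unadjusted p below 0.05 was found for 10 of the 39, beside 1580 of all 15352 genes tested. The interaction was 0.81 ± 0.28 for HSP90B1 (interval 0.21 to 1.41) and 0.58 ± 0.19 for CANX (0.17 to 0.99). It was -0.01 ± 0.16 for PDIA4 (-0.35 to 0.34).

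The trend of a library's deviation from its group mean on transcript GC content was largest in 2 libraries, disulfiram 2 and combination 2. Over 15042 genes with a GC value, the deviation rose with GC in these libraries (Spearman's rho across genes 0.62 and 0.68). It was between -0.31 and -0.60 in the other 4 libraries of the same groups, with -0.60 in combination 1. Deviations within a group cancel for each gene, so opposite signs among its libraries are partly built in. Thalidomide 1 also differed from its group, at 0.49 against -0.06 and -0.40 for thalidomide 2 and 3. HSP90B1 (42.4% GC) was lowest in the second library of both the disulfiram and the combination group, as were CANX, SEL1L, EIF2AK3 and SPCS3. The same held for ERO1B, DNAJB9, DNAJB11, DNAJC3, DERL1, DERL2, ATF6, ERN1, SSR1, SPCS1, SPCS2, SEC11A, SEC11C and OSTC. HYOU1, CALR, PDIA4, P4HB, SDF2L1, CRELD2, SYVN1, HERPUD1, SEC61A1 and SSR4 were highest there. The share of all genes with either order was not counted. Across the 39 members, the log2 fold change against GC gave a Spearman's rho of -0.39 for disulfiram against control (0.01 over all genes). It was -0.76 for the combination against control (-0.45 over all genes) and -0.73 against thalidomide (-0.51). These are descriptions across genes that share libraries.

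With the trend on GC removed from each library, 22 members fell with disulfiram and none rose, 19 and 0 fell and rose with the combination against control, and 21 and 1 against thalidomide. The all-gene shares were then 10.8% lower and 9.24% higher, 12.5% and 10.1%, and 13.0% and 11.3%. Any trend on GC is removed in this way, also one that goes with the drugs. The median log2 fold changes of all genes became 0.0056, 0.0059 and -0.00016. The correction added 7 members to the 15 called with disulfiram, namely DNAJB11, EDEM1, EIF2AK3, CRELD2, SSR1, SSR2 and OSTC, and DNAJB11, EDEM1 and OSTC were also called with median-of-ratios scaling. HSP90B1 then passed in all of these, at -1.06, -0.65 and -0.63, and CANX at -0.54, -0.32 and -0.24. With disulfiram 2 and combination 2 both left out, HSP90B1 was at -0.84 (adjusted p = 0.0077) with disulfiram, -0.04 with the combination against control and 0.04 against thalidomide. The same counts without these libraries were 16 falls and no rise with disulfiram, 13 and 8 with the combination against control, and 14 and 13 against thalidomide. Of all genes 4.92% were lower and 11.5% higher, 8.70% and 29.4%, and 9.07% and 33.1%. Whether HSP90B1 passed with both drugs depended on these settings. PDIA4, HYOU1, CALR, P4HB, PDIA3 and XBP1 were called lower in all 15 alternatives of each of these 3 comparisons.

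**Figure D5:**
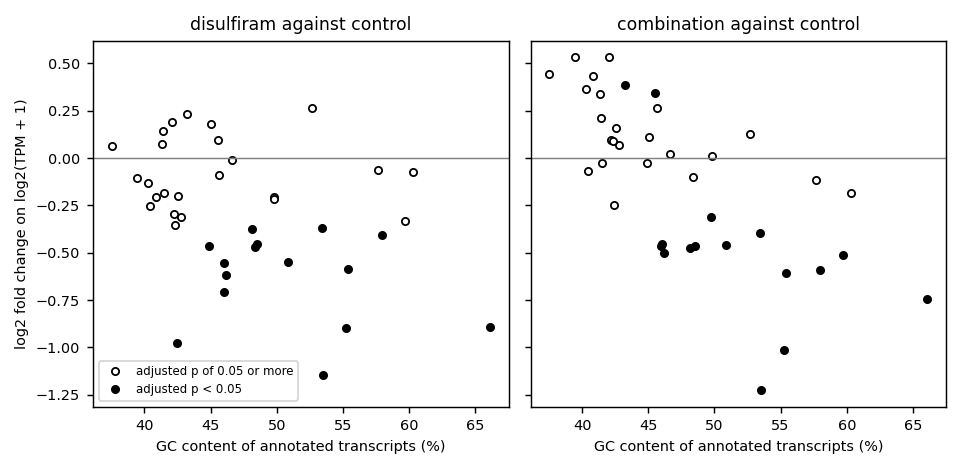
Log2 fold change of each of the 39 tested members against the GC content of its annotated transcripts (in percent, over all their bases), for disulfiram (left) and the combination (right), both against control. Filled points have an adjusted p below 0.05. In the right panel the members of low GC content lie mostly above 0 and those of high GC content below, with a Spearman's rho of -0.76, against -0.39 in the left panel.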

How the data were processed

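RNA sequencing of 12 Huh7 libraries was deposited as 1 table of TPM per gene, computed by the authors. Per the submitters' processing notes, HISAT2 2.0, StringTie 1.3.0 and hg38 were used. Annotation, filters, strandedness and depth were not given in the sources used here. Without counts no counting interval can be given. Log2(TPM + 1) was compared with limma 3.58.1 (R 4.3.3, mean-variance trend, 4 groups in 1 fit, 2-sided) over the 15352 genes that reached 1 TPM in 3 or more libraries, with Benjamini-Hochberg adjustment over all of them and a threshold of 0.05. Symbols and hg38 coordinates came from GENCODE 29, and GC content from its transcripts. The members, lists and tests were chosen with earlier results of these data known. All 40 members are given, with library values for up to 3 called members with the largest change per role and comparison, for the sensors and XBP1, and for the most abundant member of a role without a call. From the other pathway lists, values are given for up to 3 called genes with the largest change with disulfiram, and other called genes named there were chosen after their values were seen.

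No label says whether replicates came from separate cultures. The p-values therefore reflect the spread among the 12 libraries alone, which may be technical. The labels name no batch. The deviations of same-numbered libraries had a correlation over 0.1 in 4 of 18 pairs (range -0.15 to 0.37, with 0.37 for disulfiram 2 and combination 2 and 0.21 for disulfiram 1 and combination 1), so the numbers were not taken to pair libraries. The 15 alternatives were a pseudocount of 0.1, no filter, a mean TPM of at least 5, median-of-ratios scaling, the compared groups alone, a replicate block, a GC correction, both of these, leaving out disulfiram 2 and combination 2 together, and leaving out each library of a comparison. Pseudogene copies of the members held at most 0.74% of the member's TPM in any library. The test was checked on simulated data, with noise drawn for each gene on its own. For each fold, 100 of 15352 genes were changed, all with a control level above 5 TPM. Trends shared by many genes, such as that on GC, were not simulated, so the rates for the real libraries may differ. For disulfiram against control the test called 43% of 1.5-fold and 87% of 2-fold changes. For the combination against thalidomide it called 55% and 90%. For the interaction it called 7% and 49%, so a lack of calls there says little of changes of this size. Of the leukocyte markers, 1 is not reported here and is left out of their sum.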

Additional observations from a re-analysis of the deposited data

How the results depend on the processing

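The falls with disulfiram numbered 10 to 15 of the 15 found when 1 library was left out (2.79% to 4.17% of all genes tested fell). They numbered 12 with no filter (1.55% of all genes tested then fell), 18 with median-of-ratios scaling (6.84%) and 22 with the GC correction (10.8%). There were 0 rises in each of these settings. Against control, the combination had 14 falls, 9 to 13 when 1 library was left out (3.20% to 7.95% of all genes tested), and 2 rises. Those rises numbered 0 with no filter, with median-of-ratios scaling, with the GC correction and with the replicate block plus GC correction. They numbered 8 with disulfiram 2 and combination 2 both left out, and 0 to 5 when 1 library was left out. Of all genes tested 5.77%, 7.90%, 10.1%, 9.22%, 29.4% and 6.08% to 25.2% then rose, in the order named. Against thalidomide, the 13 falls numbered 21 with the GC correction, 20 with the replicate block plus GC correction, and 8 to 14 when 1 library was left out. Of all genes tested 13.0%, 11.9% and 3.75% to 8.44% then fell. The 6 rises there numbered 0 with median-of-ratios scaling, 1 with the GC correction and 0 with the replicate block plus GC correction. They numbered 13 with disulfiram 2 and combination 2 both left out, and 1 to 9 when 1 library was left out. Of all genes tested 10.4%, 11.3%, 10.3%, 33.1% and 10.4% to 29.6% then rose, in the order named.

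With the replicate block alone, falls and rises numbered 15 and 0 with disulfiram, 14 and 1 with the combination against control, and 12 and 6 against thalidomide. The all-gene shares were then 4.03% and 7.61%, 6.22% and 17.1%, and 6.70% and 23.5%. The block shares only a number, since no label pairs the libraries. Among the 39 members the sign turned in 3, 9 and 7 with median-of-ratios scaling (disulfiram, combination against control, combination against thalidomide), in 2, 13 and 15 with the GC correction, and in 4, 3 and 2 with both second libraries left out. With disulfiram the last 4 were SEL1L (0.072), DNAJC3 (0.075), SPCS1 (0.019) and SPCS3 (0.13). Of the members called in these comparisons, DERL1 alone turned, against thalidomide (-0.080 with the GC correction, with or without the block). Of the others described above, directions turned for ERO1B (-0.036 and -0.039) and SEC11A (-0.032) with disulfiram and for CANX against thalidomide (-0.15 and -0.24), in the scaling and GC settings given there, and for ATF6 with disulfiram (-0.030 with median-of-ratios scaling, -0.016 with the GC correction, with or without the block, and -0.028 to 0.20 when 1 library was left out). In the combination against control they turned for CANX (0.093) and SEC61B (0.014), and against thalidomide for HSP90B1 (0.041), each without combination 2, whether or not disulfiram 2 was also left out. With 1 library left out, these ran from -0.10 to 0.093, from -0.16 to 0.014 and from -0.36 to 0.041. The cause was not tested in any of these. The depth behind each TPM value is unknown, which limits what can be said of low members such as DERL3, ERO1B, DNAJC3 and ATF6.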
